A study of Drosophila melanogaster with 6 samples.

Results

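The homeotic (Hox) genes of *Drosophila melanogaster* and the genes of their main DNA-binding partners were examined in the larval central nervous system (CNS). They were taken by gene name and not by a cut on a measured value, although earlier results of these data were known. The set held the 5 homeotic genes of the Antennapedia complex (*lab*, *pb*, *Dfd*, *Scr* and *Antp*), the 3 of the Bithorax complex (*Ubx*, *abd-A* and *Abd-B*), and the 2 cofactor genes *exd* and *hth*. All 10 were found among the 13416 genes of the deposited expression table. Bulk RNA-seq was performed on CNS dissected from third-instar larvae, with 40 to 45 larvae collected for each sample. One group was homozygous for *Alk-YS*, in which CRISPR/Cas9 editing of *Alk*, the gene of a receptor tyrosine kinase, put a serine in place of a tyrosine in the kinase domain. The other was the control, titled w1118 in the labels, and no larva was treated. Each of the 2 groups held 3 libraries, each described as a biological replicate, and 18770029 to 22333967 reads were assigned to genes per library. *Alk-YS* was made by editing embryos of a w1118 strain that carries a vasa-driven Cas9 transgene. The study's methods name that Cas9 strain as the wild-type control, while the labels give w1118, so a difference in background between the groups cannot be told apart from the allele. The replicates are pools of animals, so every p-value below measures the spread between pools.

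Homeotic genes encode homeodomain transcription factors that give the segments of the body their identities. In each complex their order along the chromosome largely matches the order of their domains from anterior to posterior. In the CNS the domain of *lab* lies in the brain. *Dfd* and *Scr* act in the gnathal ganglia, *Antp* and *Ubx* in the thoracic part of the ventral nerve cord, and *abd-A* and *Abd-B* in its abdominal part, where they set how many times neuroblasts divide, which neurons they make and when they die. Extradenticle (Exd) and Homothorax (Hth) are homeodomain proteins of the TALE class that bind DNA together with Hox proteins. Hth also brings Exd into the nucleus, so the amount of *exd* mRNA alone does not set how much Exd is active. The silenced or active state of each homeotic gene is kept by the Polycomb and Trithorax groups of chromatin proteins.

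All 10 genes were detected in every library, and none passed the test of a difference between *Alk-YS* and control. The measure used for this comparison was the normalized count, the number of reads assigned to a gene divided by a size factor for the library. Values were tested as log2(normalized count + 1) with limma, and p-values were adjusted by the Benjamini-Hochberg method over the 9668 genes that averaged 10 normalized counts or more. All 10 genes passed that filter on low values. At an adjusted p under 0.05, limma called 0 of the 10 genes, against 287 of 9668 genes tested (2.97%). In the separate directions, 0 of 10 were called higher, with 1.26% of all genes, and 0 of 10 lower, with 1.71%. None of the 10 had an unadjusted p under 0.05, which 13.8% of all genes had, and the values of the 2 groups overlapped for each of them, while 19.5% of all genes showed no overlap. edgeR and DESeq2, run on reads recovered from the normalized counts, also called 0 of 10, with 0 at an unadjusted p under 0.05. The *Alk-YS* mean on the log2 scale was higher for 5 genes and lower for 5. Their median log2 fold change (*Alk-YS* minus control) was -0.002, beside 0.008 for all genes tested. The median size of the change, whatever its sign, was 0.09 for these genes and 0.13 for all genes. In bulk tissue, fewer cells expressing a gene and less RNA per cell cannot be told apart.

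**Figure D1:**
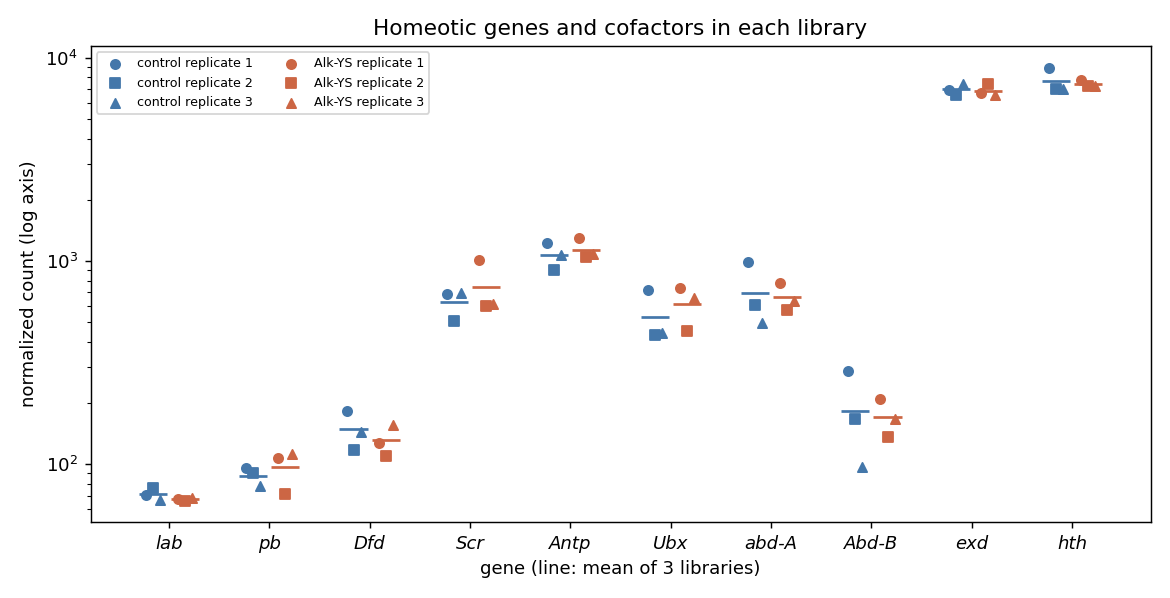
Normalized count (log axis) of the 8 homeotic genes and the 2 cofactors in each library. Blue symbols are control libraries, orange symbols *Alk-YS* libraries, the symbol shape gives the replicate number and the line marks the mean of 3 libraries. The groups overlap for all 10 genes, and *Abd-B* spreads most widely, from 96.5 to 287 normalized counts.

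The anterior genes of the Antennapedia complex were low. *lab* (FBgn0002522, chromosome 3R, 6661427 to 6678590, minus strand, BDGP6), which is required in the posterior part of the embryonic brain, was at 70.4, 76.0 and 66.9 normalized counts in control replicates 1 to 3 and at 67.3, 66.2 and 67.9 in *Alk-YS* replicates 1 to 3. The libraries lay close together, and the *Alk-YS* values fell at the lower end of the control values, replicate 2 below all of them. The log2 fold change was -0.08 ± 0.19 (SE), with an adjusted p of 0.925 (limma). *pb* (FBgn0051481, 3R, 6707800 to 6742063, minus strand), which specifies mouthparts, was at 95.7, 90.0 and 77.8 normalized counts in the controls and at 107, 71.5 and 113 in *Alk-YS*. Both the lowest and the highest library of *pb* were *Alk-YS* libraries. Its log2 fold change was 0.12 ± 0.23 (SE; adjusted p = 0.904, limma).

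*Dfd* (FBgn0000439, 3R, 6791836 to 6802428, plus strand) specifies the mandibular and maxillary segments and the neurons that drive feeding movements. It was at 183, 118 and 144 normalized counts in the controls and at 127, 110.0 and 156 in *Alk-YS*. The highest *Dfd* value was that of control replicate 1 and the other 5 libraries interleaved, with a log2 fold change of -0.17 ± 0.22 (SE; adjusted p = 0.841, limma). *Scr* (FBgn0003339, 3R, 6823120 to 6849981, minus strand), the gene of the labial and first thoracic segments, was at 689.9, 509 and 692 normalized counts in the controls and at 1013, 601 and 616 in *Alk-YS*. *Alk-YS* replicate 1 stood above the other 5 libraries, while the remaining *Alk-YS* libraries lay inside the control range. The log2 fold change of *Scr* was 0.21 ± 0.22 (SE; adjusted p = 0.793, limma), and without *Alk-YS* replicate 1 it was -0.04. The lowest adjusted p of the 10 genes was thus that of a gene whose sign turned with 1 library.

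*Antp* (FBgn0260642, 3R, 6896253 to 6999228, minus strand) specifies the second thoracic segment, is expressed in motor neurons of the leg, and was the most highly counted of the 8 homeotic genes. It was at 1230.2, 898 and 1071 normalized counts in the controls and at 1291, 1046 and 1077 in *Alk-YS*. Replicate 1 was the highest library in each group, and control replicate 2 the lowest of all. The group means of 1066 ± 166 and 1138 ± 133 (SD, n = 3) differed by less than either SD, and the log2 fold change was 0.10 ± 0.14 (SE; adjusted p = 0.853, limma).

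The Bithorax genes varied more between libraries. *Ubx* (FBgn0003944, 3R, 16656623 to 16734426, minus strand), the gene of the third thoracic and first abdominal segments, was at 719.7, 431 and 443 normalized counts in the controls and at 732, 454 and 656 in *Alk-YS*. Its values fell into a higher trio, made of replicate 1 of each group and *Alk-YS* replicate 3, and a lower trio of the other libraries. With a log2 fold change of 0.22 ± 0.25 (SE), *Ubx* had the largest difference of the 10 genes, at an adjusted p of 0.802 (limma). *abd-A* (FBgn0000014, 3R, 16807214 to 16830049, minus strand) ends neuroblast proliferation in the abdominal cord by inducing their death. It was at 986, 607 and 497 normalized counts in the controls and at 780.0, 573 and 637 in *Alk-YS*. The controls held both the highest and the lowest library, and the log2 fold change was -0.02 ± 0.25 (SE; adjusted p = 0.987, limma).

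*Abd-B* (FBgn0000015, 3R, 16927210 to 16972236, minus strand), the gene of the most posterior abdominal segments, was at 287, 166 and 96.5 normalized counts in the controls and at 210.2, 136 and 167 in *Alk-YS*. The *Alk-YS* libraries all fell between the extremes of the controls, whose highest and lowest libraries differed 2.98 times. These values stood for 261, 166 and 98 reads in the controls and 228, 127 and 180 in *Alk-YS*. At that depth counting alone gives a coefficient of variation of about 7.52%, while the controls had 52.7% and *Alk-YS* had 21.9%. The log2 fold change was 0.02 ± 0.37 (SE; adjusted p = 0.991, limma), although the mean count was 183 ± 96.5 in the controls and 171 ± 37.5 in *Alk-YS* (SD, n = 3). Without control replicate 1 the log2 fold change of *Abd-B* was 0.41 and that of *abd-A* 0.26. Without control replicate 3 they were -0.37 and -0.23. No direction can therefore be given for either gene.

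The cofactor genes were the most abundant of the set. *exd* (FBgn0000611, chromosome X, 15992468 to 15996509, plus strand) was at 6935, 6567 and 7464 normalized counts in the controls and at 6724, 7414 and 6527 in *Alk-YS*. The groups interleaved fully, with means of 6988 ± 451 and 6888 ± 466 (SD, n = 3) and a log2 fold change of -0.02 ± 0.09 (SE; adjusted p = 0.960, limma). *hth* (FBgn0001235, 3R, 10507561 to 10639568, minus strand) was at 8944, 6986 and 7006 normalized counts in the controls and at 7799, 7301 and 7278 in *Alk-YS*. Control replicate 1 was the highest library and the other controls were the lowest, so that the *Alk-YS* values lay within the control range. The log2 fold change of *hth* was -0.03 ± 0.11 (SE; adjusted p = 0.960, limma). A lincRNA gene, CR44018, lies on the opposite strand within *hth* with a mean of 87.2 normalized counts. Since the strand setting of the counting is not given in the sources used here, reads of this pair cannot be told apart, although they would make up a small part of the *hth* count.

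The 95% intervals of the differences show the range of changes that the limma fit leaves possible. That fit draws the variance of each gene towards a trend over all genes tested, so an interval does not rest on the gene's own libraries alone. A gene with widely spread libraries gets a smaller variance than its own, and a gene with close libraries a larger one. The SD of log2 values within groups was 0.60 for *Abd-B* and 0.07 for *lab*, with SE of 0.37 and 0.19. For all 10 genes the limma interval lay within 2-fold in both directions, and for 4 of them (*lab*, *Antp*, *exd* and *hth*) it lay within 1.5-fold. The narrowest interval was that of *exd*, from 0.854- to 1.14-fold, followed by *hth* with 0.820- to 1.18-fold. The widest was that of *Abd-B*, from 0.555- to 1.84-fold. Those of *Ubx* and *abd-A*, of nearly equal width on the log2 scale, ran from 0.786- to 1.73-fold and from 0.664- to 1.46-fold. Changes inside these intervals can therefore not be excluded, and the p-values do not show that the genes were equal in the 2 groups. The bounds are not limits of detection, since a call also required an adjusted p under 0.05. An exact two-sided permutation test over the 6 libraries, whose smallest possible p is 0.1, gave 0.3 for *lab* and 0.5 to 1.0 for the other genes.

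**Figure D2:**
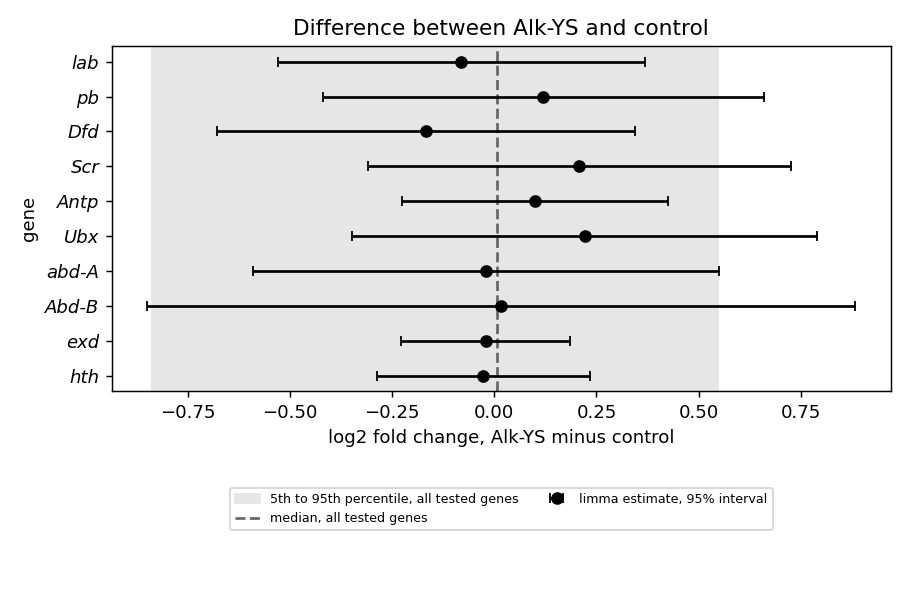
Log2 fold change (*Alk-YS* minus control, x axis) of each gene (y axis), with the limma estimate as a point and its 95% interval as a bar. The dashed line is the median of all 9668 genes tested and the grey band their 5th to 95th percentile, -0.84 to 0.55. Every interval crosses 0, and that of *Abd-B* is the widest.

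Levels were compared between genes on the FPKM scale, which divides fragments by the length of the gene's exons and by library size. *exd* led at 101 ± 6.08 FPKM (SD over 6 libraries) and *hth* followed at 30.7 ± 2.99 FPKM. *exd* was higher than *hth* in 6 of 6 libraries, by 3.29 times in the means, and *hth* was higher than *Scr* in 6 of 6. The mean normalized count of *hth* was the higher, though *exd* exceeded it in control replicate 3 and *Alk-YS* replicate 2, and the exons of *hth* sum to 11839 bp against 3302 bp for *exd*.

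The homeotic genes of the labial, thoracic and anterior abdominal segments then came at nearly the same level per length. *Scr* was at 7.22 ± 1.82, *Antp* at 7.06 ± 0.893, *Ubx* at 6.43 ± 1.62 and *abd-A* at 5.97 ± 1.54 FPKM (SD over 6 libraries). The ranges of neighbours in this order overlapped, and *Scr* exceeded *Antp* in only 2 of 6 libraries, so these 4 levels did not differ beyond their spread. *Dfd* was lower, at 2.45 ± 0.473 FPKM, and *abd-A* exceeded it in 6 of 6 libraries by 2.44 times in the means. The lowest were *pb* at 1.19 ± 0.206, *Abd-B* at 1.10 ± 0.409 and *lab* at 1.09 ± 0.058 FPKM, again with overlapping ranges. Within the Bithorax complex, *abd-A* was 4.84 to 7.26 times as high as *Abd-B* per length in the single libraries, whereas *Ubx* stood at 0.908 to 1.32 times *abd-A*.

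**Figure D3:**
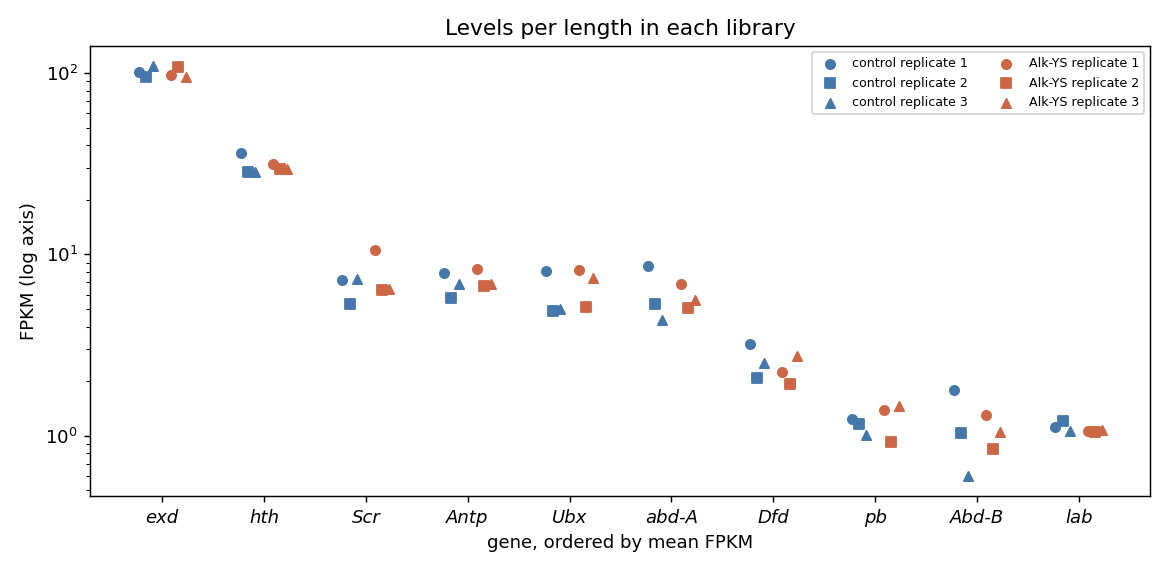
FPKM (log axis) of each gene in each library, ordered by mean FPKM, with control libraries in blue and *Alk-YS* libraries in orange. *exd* and *hth* stand above the homeotic genes, *Scr*, *Antp*, *Ubx* and *abd-A* form a group between 4.37 and 10.6 FPKM, and *lab*, *pb* and *Abd-B* lie at the bottom.

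Several homeotic genes were high or low in the same libraries, in both groups. Replicate 1 of the controls was the highest library for 4 of the 10 genes and *Alk-YS* replicate 1 for 3, and neither was the lowest for any. Control replicate 2 was the lowest for 4 genes and *Alk-YS* replicate 2 for 3. Summed over the 8 homeotic genes, the level was 39.2, 26.8 and 28.7 FPKM in control replicates 1 to 3 and 39.9, 28.0 and 32.7 FPKM in *Alk-YS* replicates 1 to 3. The replicate 1 libraries were thus the highest of both groups, and the groups overlapped. The 6 libraries stood in the same order for *abd-A* as for *Abd-B*: control 1, *Alk-YS* 1, *Alk-YS* 3, control 2, *Alk-YS* 2 and control 3. The Bithorax genes made up 47.3%, 41.9% and 34.7% of the summed homeotic FPKM in the controls and 41.0%, 39.3% and 42.9% in *Alk-YS*. Control replicates 1 and 3 lay outside the *Alk-YS* values on either side.

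Of the cofactors, *hth* was likewise highest in replicate 1 of each group and lowest in control replicate 2, and its ratio to the summed homeotic FPKM stayed between 0.792 and 1.06. *exd* was not highest in those libraries. The ratio of *exd* to the summed homeotic FPKM was 2.58, 3.58 and 3.79 in the controls and 2.45, 3.87 and 2.91 in *Alk-YS*, lowest in both replicate 1 libraries. The median SD of log2 values within groups was 0.28 for the 10 genes and 0.18 for all genes tested. Among the 10 it ran from 0.07 for *lab* and 0.09 for *exd* to 0.39 for *Ubx* and *abd-A* and 0.60 for *Abd-B*. For *lab* the coefficients of variation of 6.44% in the controls and 1.29% in *Alk-YS* were below the 12% that counting alone would give, while for *Ubx* and *abd-A* the coefficients in the controls were 30.7% and 36.8%, against counting values of 4.16% and 3.84%.

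Genes with the most similar pattern were sought among 8341 genes that averaged 50 normalized counts or more, by the root mean square difference of mean-centred log2 values over the 6 libraries. Only the 7 genes whose log2 range exceeded 0.5 were matched, which left out *lab*, *exd* and *hth*. Nearest to *Ubx* were CG9003 (difference 0.02), *SIFaR* (0.07), a neuropeptide receptor gene, and *unc-4* (0.07), a homeobox gene of ventral nerve cord neurons. *unc-4* was at 550.2, 357 and 330 normalized counts in the controls and at 559, 349 and 456 in *Alk-YS*, and so shared the higher and lower trios of *Ubx*. For *Scr* the nearest gene was *en* (0.09), the segment polarity gene of posterior compartments, followed by *Asph* and CG16786. Nearest to *Antp* were CG5038 (0.03), CG13654 (0.04) and *dlp* (0.06), a glypican gene. For *abd-A* the nearest was *beat-VII* (0.10), and for *Abd-B* they were *Gpa2* (0.18), a glycoprotein hormone subunit gene, *abd-A* itself (0.19) and CR44018 (0.19). *Dfd* was nearest to *CCAP-R* (0.10), a neuropeptide receptor gene, and *pb* to CG1943 (0.06). With 6 libraries that share depth and preparation, these likenesses are descriptions of the libraries only.

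The other genes of the 2 complexes were examined to see whether either locus as a whole differed. Of 25 neighbours in the Antennapedia complex, 10 passed the filter on low values, with a median log2 fold change of -0.07. In limma 1 was called higher (1.26% of all genes) and 0 lower (1.71%). An unadjusted p under 0.05 was found for 3 of the 10 (13.8% of all genes), and no overlap between groups for 4 (19.5%). DESeq2 called 2 of the 10 higher and edgeR 1. The segmentation and early patterning genes *ftz*, *zen*, *zen2* and *bcd*, which act in the embryo, were each below 10 normalized counts in all 6 libraries. The gene called was CR44932 (FBgn0266237, 3R, 6895178 to 6896128, minus strand), annotated as a lincRNA, which begins 124 bp beyond the 3′ end of *Antp* on the same strand.

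CR44932 was at 1.10, 2.00 and 2.95 normalized counts in the controls and at 45.2, 23.5 and 27.0 in *Alk-YS*, so every *Alk-YS* library was above every control. These values stood for 6 reads in all 3 controls together and 100 in all 3 *Alk-YS* libraries. The ratio was 15.7, with a counting interval (95%) of 6.98 to 43.9 that leaves out the spread between pools. Limma gave a log2 fold change of 3.44 ± 0.55 (SE) and an adjusted p of 0.017. It passed the filter on low values only through the *Alk-YS* libraries, and with 1 library left out the call held in 1 of 6 fits, that without control replicate 3, and was lost in the other 5 (adjusted p of 0.052 to 0.118, limma). *Antp* itself, upstream on the same strand, did not pass the test, with *Alk-YS* replicates 2 and 3 inside the control range.

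Among the others of this complex, the most abundant were pncr002:3R, a non-coding gene between the cuticle genes, and *Ama*, which encodes a secreted immunoglobulin-domain protein of the nervous system. *Ama* was at 6743, 7263 and 5789 normalized counts in the controls and at 8889, 7704 and 8749.7 in *Alk-YS*. The groups did not overlap, but the log2 fold change of 0.36 ± 0.11 (SE) did not pass in limma (adjusted p = 0.161), whereas DESeq2 on recovered reads called it. A lincRNA, CR45593, overlaps *Ama* on the opposite strand at 63.0 to 103 normalized counts. In the Bithorax complex 1 of 7 neighbours was tested and 0 were called by limma, edgeR or DESeq2, with 0 at an unadjusted p under 0.05. That gene was the lincRNA *iab-8*, from the region that regulates *abd-A* and *Abd-B*. It was at 23.1, 11 and 8.86 normalized counts in the controls and at 24, 22.4 and 15.8 in *Alk-YS* (log2 fold change 0.60 ± 0.47 SE, adjusted p = 0.688, limma). *bxd*, the lincRNA upstream of *Ubx*, was below the filter at 3.30, 7.0 and 0.984 normalized counts in the controls and 7.38, 11.7 and 8.37 in *Alk-YS*, and was not tested.

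**Figure D4:**
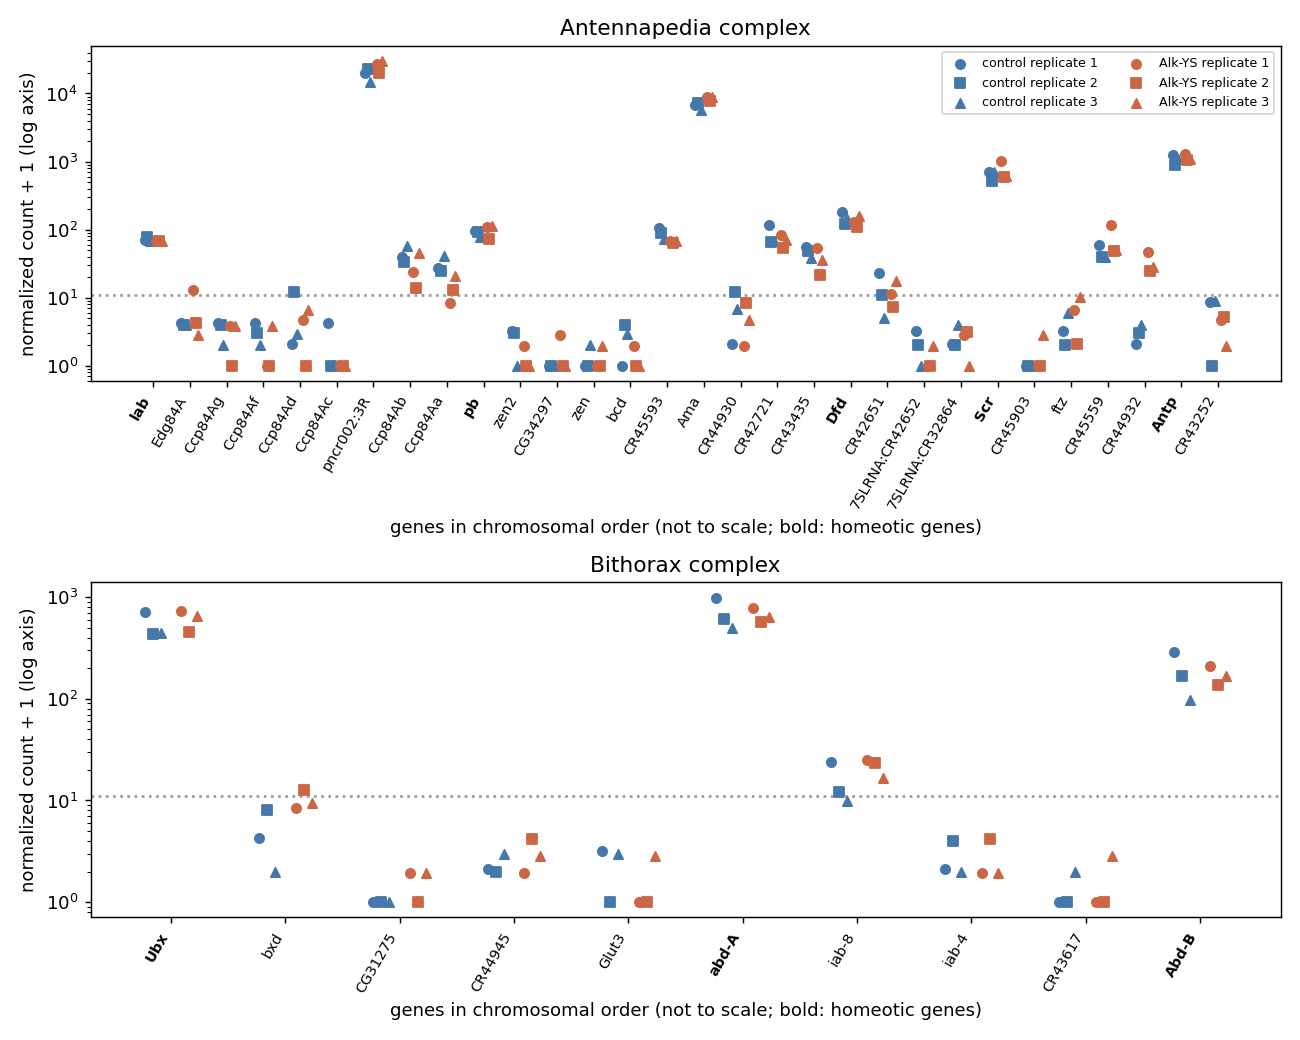
Normalized count + 1 (log axis) of every listed gene in each library, in chromosomal order and not to scale, for the Antennapedia (top) and Bithorax (bottom) complexes. Homeotic genes are in bold, controls blue, *Alk-YS* orange, and the dotted line marks 10 normalized counts. CR44932, beside *Antp*, is the gene whose groups stand farthest apart, with 1.10 to 2.95 normalized counts in the controls and 23.5 to 45.2 in *Alk-YS*.

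The chromatin regulators that hold homeotic genes silent or active gave no calls. Of 22 Polycomb group genes, all tested, 0 were called by limma, edgeR or DESeq2 and 0 had an unadjusted p under 0.05. Their median log2 fold change was 0.04. The most abundant were *Caf1*, a histone-binding subunit, at 6106 to 6742 normalized counts in the controls and 6668 to 6845 in *Alk-YS*, *jing*, and *ph-p*, a core subunit of PRC1. *ph-p* had a log2 fold change of 0.08 ± 0.08 (SE; adjusted p = 0.794, limma). Of 17 Trithorax group genes 0 were called by any of the 3 tools and 1 had an unadjusted p under 0.05, with a median of 0.06. The nucleosome remodeller *kis* was the most abundant of them, with a log2 fold change of 0.08 ± 0.16 (SE; adjusted p = 0.912, limma). *osa*, a subunit of the Brahma complex, was at -0.03 ± 0.10, and *fs(1)h*, a bromodomain protein gene, at -0.04 ± 0.09 (SE).

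Genes that work beside homeotic genes in the trunk and head were not called either. Of 6 such genes 0 were called by limma, edgeR or DESeq2 and 0 had an unadjusted p under 0.05. *tsh*, which acts with homeotic genes in the trunk, was at 1804, 1490.1 and 1992 normalized counts in the controls and at 2293, 1735 and 1771 in *Alk-YS*. As for *Scr* and *en*, *Alk-YS* replicate 1 was its highest library and control replicate 2 its lowest. The log2 fold change of *tsh* was 0.13 ± 0.15 (SE; adjusted p = 0.804, limma), and that of its paralog *tio* was 0.05 ± 0.14. *cnc*, which acts in the mandibular segment, as *Dfd* does, was at 0.06 ± 0.08.

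A list of 10 genes held targets of homeotic proteins, some known as such from other tissues or stages, and the partner factor *grh*. From this list 0 were called by limma, edgeR or DESeq2 and 0 had an unadjusted p under 0.05, with a median log2 fold change of 0.02. No overlap between groups was seen for 4 of the 10, beside 19.5% of all genes. *Con*, *Dll* and *grh* were lower in *Alk-YS*, while *wg*, named after its values were seen, was higher (log2 fold change 0.33 ± 0.16 SE). The cell adhesion gene *Con*, the most abundant, was at 3887, 3095 and 2955 normalized counts in the controls and at 2892, 2702 and 2676 in *Alk-YS* (log2 fold change -0.26 ± 0.12 SE, adjusted p = 0.392, limma). *Dll*, which is repressed by abdominal homeotic proteins in the embryonic epidermis, was at -0.21 ± 0.10 and *grh*, a neuroblast factor that acts with *abd-A*, at -0.16 ± 0.10 (SE). The log2 fold changes of the death genes *rpr*, *hid*, *skl* and *grim*, chosen after their values were seen, were 0.09 ± 0.23, 0.003 ± 0.11, 0.03 ± 0.17 and 0.41 ± 0.31 (SE), all above 0 and none with an unadjusted p under 0.05. *rpr* was at 599.7, 521 and 387 normalized counts in the controls and at 614, 381 and 625 in *Alk-YS*, with overlapping groups.

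Position markers of the CNS itself were set beside the homeotic genes. Of 9 head and brain patterning genes 0 were called by limma, edgeR or DESeq2 and the median log2 fold change was 0.10. On average 6 were higher in *Alk-YS* and 3 lower. The 2 with an unadjusted p under 0.05, beside 13.8% of all genes, were both higher. The groups did not overlap for 4 of the 9, beside 19.5% of all genes. The eye and mushroom body factor *toy*, the most abundant, was among the 3 lower ones, at -0.15 ± 0.08 (SE; adjusted p = 0.481, limma). Of 12 nerve cord patterning genes 11 were tested, 10 of them with a higher mean in *Alk-YS*. Of these 11, 0 were called by limma, edgeR or DESeq2, and 4 had an unadjusted p under 0.05, beside 13.8% of all genes. No overlap between groups was seen for 4 of the 11, beside 19.5% of all genes. The median of the 11, 0.35, remained between 0.23 and 0.44 when 1 library was left out. The most abundant were *mid* at 0.19 ± 0.14, *Dr* at 0.37 ± 0.15 and *HGTX* at 0.48 ± 0.19 (SE, log2 fold change). *gsb*, a Pax gene of row-specific neuroblasts chosen after its values were seen, was at 82.5, 85.0 and 80.7 normalized counts in the controls and at 137, 109 and 149 in *Alk-YS*. The groups did not overlap for *gsb*, and its log2 fold change of 0.65 ± 0.19 (SE) had an adjusted p of 0.139 (limma).

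**Figure D5:**
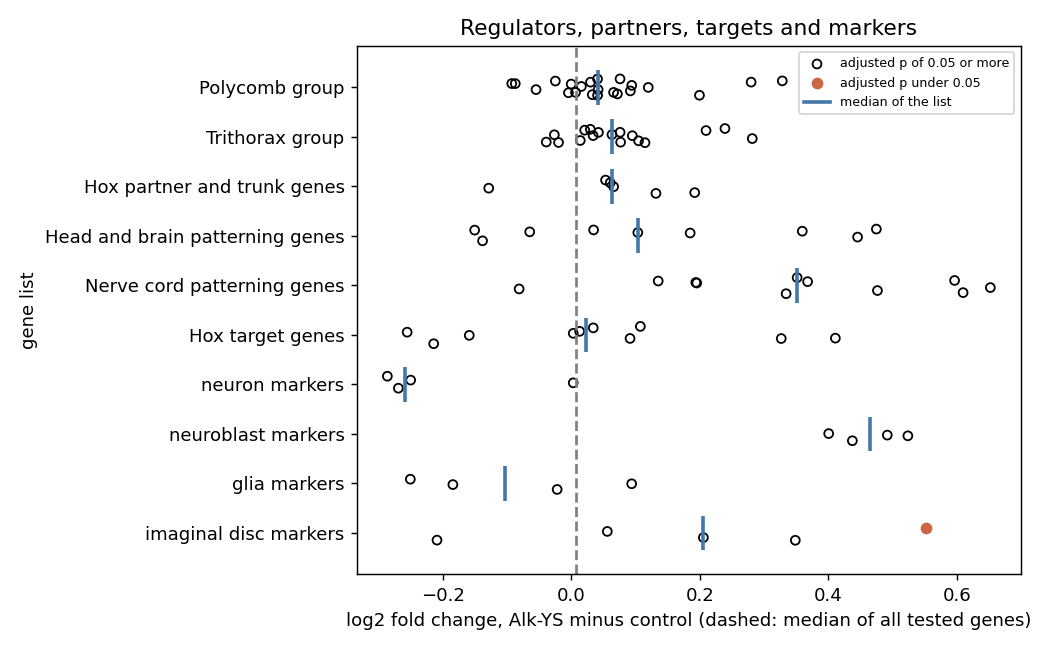
Log2 fold change (*Alk-YS* minus control, x axis) of each gene tested in the lists of regulators, partners, targets and markers (y axis). Each circle is a gene, filled where the adjusted p was under 0.05, the blue bar is the median of the list and the dashed line the median of all genes tested. The nerve cord and neuroblast lists lie to the right, at medians of 0.35 and 0.46, and 1 disc marker, *rn*, is filled.

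Markers of the cell types in the tissue were also read. The neuronal gene *elav* was at 15227 to 20762 normalized counts over the 6 libraries and the glial gene *repo* at 1360.0 to 1731, as the CNS label implies. The 4 neuroblast markers (*mira*, *wor*, *ase* and *dpn*) were all higher on average in *Alk-YS*, with a median log2 fold change of 0.46, and their summed normalized count was 4649 to 6827 in the controls and 6688 to 8574 in *Alk-YS*. None was called by limma or edgeR, all 4 had an unadjusted p under 0.05 (beside 13.8% of all genes), and DESeq2 called *wor*. The 4 neuron markers had a median of -0.26 and sums of 29791 to 38955 and 29810 to 32360, again with no call by any tool and 1 unadjusted p under 0.05. They did not move together: *elav* was at 0.003 ± 0.12 (SE, log2 fold change), and the other 3 were lower on average in *Alk-YS*. Imaginal discs also express homeotic genes. Of 5 disc markers 4 were higher on average in *Alk-YS* and 1 lower, with a median log2 fold change of 0.21. Only *rn* was called (log2 fold change 0.55 ± 0.10 SE, adjusted p = 0.030, limma), where 1.26% of all genes were called higher. The disc markers summed to 4197 to 4871 normalized counts in the controls and 4779 to 5203 in *Alk-YS*. All 6 muscle markers were lower on average, with a median log2 fold change of -1.12, and all 6 had an unadjusted p under 0.05. *Mlc1* and *Mlc2* passed the test in limma, edgeR called 2 lower and DESeq2 called 5. Their sums were 2755 to 3668 in the controls and 1501 to 2101 in *Alk-YS*. In limma, 1 of 6 fat body markers (*Fbp2*), 1 of 4 blood cell markers (*NimC1*) and 1 of 5 salivary gland markers (*Sgs4*) fell. These 3 lists had median log2 fold changes of -2.63, -0.34 and 0.53, with 0, 1 and 3 members higher on average in *Alk-YS*, among them the blood cell gene *eater* at 0.85. The summed fat body markers ran from 13121 to 127577 in the controls and from 3252 to 34917 in *Alk-YS*, highest in replicate 2 of each group. No marker in these lists was at 0 in every library. Their part in the values of the homeotic genes was not tested.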

How the data were processed

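RNA of the larval CNS was measured in 6 libraries, 3 of each group. Per the submitters' processing notes, the authors used HISAT2 2.0.5, featureCounts 1.5.0-p3 and DESeq2 1.20.0 with the BDGP6 assembly. The annotation release and strand setting are not given in the sources used here. The deposited signal values of the expression table (13416 genes) are gene read counts divided by a library size factor. In all 6 libraries 100% of these values were whole multiples of the value of 1 read (tolerance 1e-06), so reads were recovered for the alternatives. The deposited FPKM values equalled recovered reads over exon length and a constant per library, within 1% for 100% of genes with at least 20 reads. The deposited table also held the authors' log2 fold changes and p-values, which were not used.

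Tests were run with limma 3.58.1 in R 4.3.3 (lmFit, then eBayes with the trend option, two-sided) at a pseudocount of 1. Fold changes on this scale understate low genes. edgeR 4.0.16 and DESeq2 1.42.0, other scalings, pseudocounts and filters, the FPKM table, a replicate block and leaving out each library were alternatives. On counts simulated for the 9668 genes, limma recovered 74% of 2-fold and 99% of 4-fold changes, with 5.46% false calls. Intervals from counts cover counting error only. The genes and lists were chosen with earlier results of these data known. Outside the 10 genes, the text names called genes, at most 3 most abundant genes per list, and others stated or evident as chosen after their values were seen (*rpr*, *hid*, *skl*, *grim*, *wg*, *eater*, *gsb*, *Ama*, *bxd*, *iab-8*, *ftz*, *zen*, *zen2*, *bcd*). Of 163 list entries 162 were found. Of the gene IDs 98.2% were in the supplied annotation, 98.4% of these at the same coordinates, as were 9 of the 10 genes.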

Additional observations from a re-analysis of the deposited data

How the results depend on the processing

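None of the 10 genes was called under any of 17 alternatives, with a lowest adjusted p of 0.482 (0.776 with all 6 libraries). Of 170 values under these alternatives 14 had another sign, for 7 genes, and of fits on all 6 libraries this concerned *Abd-B* alone, at -0.11 with edgeR, -0.10 with DESeq2 and -0.020 with the FPKM table. When 1 library was left out, the log2 fold change ran from -0.37 to 0.41 for *Abd-B* and from -0.23 to 0.26 for *abd-A*, the lowest without control replicate 3 and the highest without control replicate 1. It ran from -0.00032 to 0.32 for *pb*, -0.037 to 0.34 for *Scr*, -0.019 to 0.21 for *Antp*, -0.075 to 0.027 for *exd* and -0.086 to 0.092 for *hth*. These intervals straddle 0, and the cause of the changes in sign was not tested. The number of genes called over the whole table, 287, became 612 with DESeq2, 84 at an adjusted p under 0.01, and 105 to 336 when 1 library was left out. In simulated counts DESeq2 had 17.5% false calls. Deviations from the group means correlated at -0.12, 0.35 and 0.41 between libraries of the same replicate number. Since 1 of these pairs was not above 0.1, the numbers were not taken to pair the samples. With the replicate number as a block 284 genes and 0 of the 10 were called. CR44932 could not be tested at a minimum mean of 50.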
